A study of Mus musculus with 9 samples.

Results

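The genes described here are 9 chemokines and interleukin 1 beta, 10 of the 20731 gene symbols in the count table, chosen by name: Ccl2, Ccl3, Ccl4, Ccl12, Cxcl10, Cxcl12, Cxcl14, Cxcl16, Cx3cl1 and Il1b. RNA was sequenced from 9 male C57BL/6J mice aged 8 to 10 weeks, 3 in each of 3 groups, on day 2 after modelling. All 9 mice had cerebral venous sinus thrombosis (CVST), made by placing ferric chloride on the superior sagittal sinus, and the CVST group had no ligation and no 4-PBA. The methods mention a solvent for control mice, but whether the CVST or CVST+Ligation mice received it is not given in the sources used here. In the CVST_Ligation group, called CVST+Ligation below, the deep cervical lymph nodes, which drain the meningeal lymphatic vessels, were also ligated, on both sides according to the series text. The CVST_Ligation_4_PBA group, called 4-PBA below, had thrombosis and ligation and also received 4-phenylbutyric acid, a chemical chaperone used as an inhibitor of endoplasmic reticulum stress, by intraperitoneal injection at 100 mg/kg. The methods place the injection 30 min before modelling, whereas the series text places it after ligation. Ligation without thrombosis, sham surgery and 4-PBA without ligation were not analysed here, so each difference is one between mice that all had a clot.

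Chemokines are small secreted proteins that bind receptors on leukocytes and glia and direct cell movement along their gradients. Some, such as Ccl2 and Cxcl10, are made mainly after injury or infection by microglia, astrocytes, endothelium and incoming monocytes, and others, such as Cx3cl1 in neurons and Cxcl12 in endothelium, meninges and neurons, are made in the healthy brain. Interleukin 1 beta is a cytokine that microglia and myeloid cells make as a precursor, which caspase-1 cuts into its active form when an inflammasome assembles.

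Chemokines are classed by the spacing of their first cysteines, and the classes bind different receptor families. To show these classes, the coding bases around the first pair of cysteines are given for 5 members from the GENCODE vM21 transcripts (GRCm38), 5′ to 3′, with the cysteine codons in capitals. The cysteines are adjacent in the CC chemokines, which bind CCR receptors. They are separated by 1 residue in the CXC chemokines and by 3 residues in Cx3cl1.
Ccl2 (CC): ccactcaccTGCTGCtactcattc
Ccl12 (CC): ccagtcacgTGCTGTtataatgtt
Cxcl10 (CXC): acggtccgcTGCaacTGCatccatatc
Cxcl12 (CXC): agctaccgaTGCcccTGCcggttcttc
Cx3cl1 (CX3C): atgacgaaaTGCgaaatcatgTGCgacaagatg

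Of the 10 members, 5 lie on chromosome 11. Ccl2 (82035571 to 82037453, plus strand) and Ccl12 (82101845 to 82103400, plus strand) are 64.4 kb apart, and Ccl3 (83647844 to 83649355, minus strand) and Ccl4 (83662584 to 83664683, plus strand) are 13.2 kb apart. Cxcl16 is on the same chromosome at 70453983 to 70459984, minus strand. The others are Cxcl10 (chromosome 5, 92346638 to 92348889, minus strand), Cxcl12 (chromosome 6, 117168535 to 117181367, plus strand), Cxcl14 (chromosome 13, 56288643 to 56296551, minus strand), Cx3cl1 (chromosome 8, 94772009 to 94782427, plus strand) and Il1b (chromosome 2, 129364570 to 129371139, minus strand), all GRCm38. For all 10 members, no run of 50 bases was shared with a transcript of another gene, so near-identical copies do not split their reads. Exons overlap a gene on the other strand at Cxcl10 (133 bases with Art3), Cxcl16 (552 bases with Zmynd15) and Il1b (25 bases with Il1bos). The methods name an orientation mode for the alignment, but whether the counting used strand is not given in the sources used here, so reads in those bases cannot be assigned with certainty.

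Promoter sequence was found for 7 of the 10 members in RefSeq (GRCm38.p6) and not for Ccl2, Ccl4 and Cxcl16. The 250 bases before the start are printed for Cxcl10, Il1b and Ccl3, since these 3 had their highest level in the same library, 4-PBA replicate 3. The letters searched on both strands were GGGA, any 4 bases and CC for an NF-kB site, TTTC, any 2 bases and TTTC for an interferon-stimulated response element, and TATAAA for a TATA box. Every match is in capitals.
Cxcl10, chr5:92348890-92349139, minus strand: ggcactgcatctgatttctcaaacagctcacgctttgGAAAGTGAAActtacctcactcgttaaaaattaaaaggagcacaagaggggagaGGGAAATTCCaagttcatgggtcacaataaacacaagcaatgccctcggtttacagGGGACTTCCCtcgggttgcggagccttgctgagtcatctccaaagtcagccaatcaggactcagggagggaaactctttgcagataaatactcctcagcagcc
Il1b, chr2:129371140-129371389, minus strand: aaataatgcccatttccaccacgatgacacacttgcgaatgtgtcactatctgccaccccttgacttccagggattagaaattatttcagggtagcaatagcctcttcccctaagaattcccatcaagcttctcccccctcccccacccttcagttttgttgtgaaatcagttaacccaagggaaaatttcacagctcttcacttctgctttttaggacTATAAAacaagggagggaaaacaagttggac
Ccl3, chr11:83649379-83649628, minus strand: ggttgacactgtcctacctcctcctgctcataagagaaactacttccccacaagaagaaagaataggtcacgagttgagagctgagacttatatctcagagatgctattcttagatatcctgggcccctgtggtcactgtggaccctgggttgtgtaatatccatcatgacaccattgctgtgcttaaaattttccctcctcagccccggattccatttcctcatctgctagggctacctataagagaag

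The Cxcl10 window held 2 matches to the NF-kB letters, whose first bases lie 159 and 103 bases before the start, and 1 match to the interferon element at 213. It was the only one of the 7 members' windows with the NF-kB letters, which 17.6% of 32851 promoters of this length hold. The interferon letters stood in 2 of the 7, Cxcl10 and Cxcl14, and in 2.98% of promoters. TATAAA stood in 3 of the 7, Ccl12, Cx3cl1 and Il1b, and in 12.4% of promoters, and in Il1b and Ccl12 it began 31 bases before the start. None of the 3 motifs was found in the Ccl3 window. These matches describe the letters and not the binding of a factor.

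The libraries held between 18100739 and 25091498 counts. CPM here is a gene's count relative to the total of its library, on the usual scale and after TMM scaling, and the limit that a count of 0 allows, 3 counts, was 0.114 to 0.163 CPM. The labels give the tissue as brain and the series text as cortex, but markers of other brain regions differed between the groups. Midbrain dopamine neuron markers (5 genes) summed to 17.9 to 19.5 CPM in the CVST libraries, 166 to 203 in CVST+Ligation and 224 to 227 in 4-PBA. Hypothalamic markers (6 genes) summed to at most 3.36 CPM in CVST and to 277 to 472 in 4-PBA, and cortical excitatory neuron markers (7 genes) to 471 to 619 in CVST, 211 to 439 in CVST+Ligation and 176 to 317 in 4-PBA. CVST+Ligation replicate 2 stood apart, with 788 CPM of cerebellar markers. In bulk tissue, fewer cells of a type and less RNA per cell cannot be told apart, and the part of the dissected region in any difference below was not tested.

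Levels of the members were compared with each other only per length, as FPKM. Cx3cl1, the membrane-bound neuronal chemokine, was the most abundant, with a mean of 272 FPKM over the 9 libraries (150 to 402), and Cxcl14 followed at 100.2 FPKM (66.2 to 142). Each was above the next member in all 9 libraries. Cxcl12 (mean 26.9 FPKM) and Ccl12 (22.6 FPKM) came next, but Cxcl12 was the higher in only 5 of the 9 libraries. Cxcl10 had a mean of 5.77 FPKM, Ccl2 5.03 and Cxcl16 4.18, with Ccl2 above Cxcl16 in 3 of 9 libraries. Ccl4 (1.84 FPKM), Ccl3 (1.65) and Il1b (0.858) were the lowest and their order was not stable, since Ccl4 was above Ccl3 in 4 libraries and Ccl3 above Il1b in 5. The deposited gene length, by which FPKM is divided, equals the coding length for 7 members, and whether reads in untranslated bases were counted is not given in the sources used here.

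Of the 10 members, 5 were near 0 counts in at least 1 library. Ccl4 had under 10 counts in 6 of the 9 libraries and Ccl3 in 5, and each was at 0 in 3. Il1b and Ccl2 had under 10 counts in 2 libraries each and Cxcl10 in 1, and of these Il1b was at 0 in 1 library. The other 5, Ccl12, Cxcl12, Cxcl14, Cxcl16 and Cx3cl1, had at least 28 counts in every library. All 10 passed the filter on low counts (0.428 CPM in enough libraries), but Ccl3 passed through 1 CVST and 3 4-PBA libraries and no CVST+Ligation library.

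Ccl2, the main attractant of monocytes that carry the receptor Ccr2, had 25, 55 and 10 counts in CVST replicates 1 to 3, 2, 19 and 14 in CVST+Ligation, and 7, 63 and 285 in 4-PBA. As CPM these were 1.06, 2.44 and 0.542 in CVST, 0.0827, 0.979 and 0.615 in CVST+Ligation, and 0.379, 2.65 and 10.9 in 4-PBA. One 4-PBA library was thus 4.10 times the next highest library, while another 4-PBA library was below every CVST library, and all 3 groups overlapped. The 4-PBA mean was 4.63 ± 5.51 CPM (SD, n = 3) against 0.559 ± 0.451 in CVST+Ligation, higher by 3.07 on the log2 scale (standard error 1.14, adjusted p = 0.99983, edgeR). Against CVST (mean 1.35 CPM, SD 0.98), the fitted log2 difference was -1.29 (standard error 1.13, adjusted p = 0.721) for CVST+Ligation and 1.78 (standard error 1.06, adjusted p = 0.459) for 4-PBA. Without 4-PBA replicate 3, the log2 difference of 4-PBA was 1.47 against CVST+Ligation and 0.18 against CVST, so that 1 library set most of the size of both. The difference between CVST+Ligation and CVST ranged from -1.96 without CVST+Ligation replicate 2 to -0.55 without CVST replicate 2.

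Ccl12, a mouse chemokine that also acts on Ccr2 and is the neighbour of Ccl2, was more abundant and gave a different order of groups. It had 311, 365 and 50 counts in CVST (13.2, 16.2 and 2.71 CPM), 88, 53 and 166 in CVST+Ligation (3.64, 2.73 and 7.30 CPM) and 28, 32 and 383 in 4-PBA (1.52, 1.35 and 14.6 CPM). High libraries thus occurred in CVST and in 4-PBA, and both of these groups also held low ones. The means were 10.7 ± 7.08 CPM in CVST, 4.56 ± 2.42 in CVST+Ligation and 5.82 ± 7.60 in 4-PBA (SD, n = 3). The fitted log2 difference was -1.23 (standard error 0.93, adjusted p = 0.689) for CVST+Ligation against CVST and 0.36 (standard error 0.93, adjusted p = 0.99983) for 4-PBA against CVST+Ligation. Without 4-PBA replicate 3 the latter was -1.67, so that 1 library set its direction. Between 4-PBA and CVST the difference was -0.87 (standard error 0.92, adjusted p = 0.706, edgeR), and without 4-PBA replicate 3 it was -2.90.

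Ccl3 and Ccl4 encode the macrophage inflammatory proteins 1 alpha and 1 beta, which microglia and macrophages make soon after activation. Ccl3 was at 0 counts in all 3 CVST+Ligation libraries, which allows up to 0.124 to 0.155 CPM. It had 6, 23 and 1 counts in CVST (0.255, 1.02 and 0.0542 CPM) and 16, 11 and 36 in 4-PBA (0.867, 0.463 and 1.37 CPM). Ccl3 was the only member whose CVST+Ligation values did not overlap those of CVST or of 4-PBA, although CVST replicate 3, at 1 count, was itself under the limit of 3. Taken against a floor of 3 counts per CVST+Ligation library, the mean was at least 3.24-fold higher in CVST (0.443 ± 0.510 CPM) and at least 6.58-fold higher in 4-PBA (0.901 ± 0.455 CPM; SD, n = 3). The first bound rested on CVST replicate 2, without which the CVST mean was 0.155 CPM and the bound 1.13-fold (a check chosen after seeing the data). The adjusted p of these differences was 0.334 and 0.99983 by edgeR, and the adjusted p was 0.0326 and 0.0289 by DESeq2. Over the alternatives that tested Ccl3, the adjusted p ranged from 0.0326 to 0.576 for the first difference and from 0.0289 to 1 for the second. Between 4-PBA and CVST the difference was 0.997 on the log2 scale (standard error 0.90, adjusted p = 0.658, edgeR).

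The 8 T and NK cell markers summed to 4.39 to 12.1 CPM in CVST, 2.27 to 2.95 in CVST+Ligation and 2.63 to 11.02 in 4-PBA. They did not move as a list. Only 2 of the 8 passed the filter on low counts, and against CVST 1 of the 2 was above 0 and 1 below in each ligated group. In 4-PBA against CVST+Ligation the 2 were above 0. Of these 8, Cd3d and Cd3g were at 0 throughout CVST, Cd3g throughout CVST+Ligation and Cd8a and Nkg7 throughout 4-PBA, and their part in the Ccl3 values was not tested. The 4-PBA library with the highest Ccl3, replicate 3, had 2.63 CPM of T and NK cell markers, within the CVST+Ligation range. Ccl4 had 2, 23 and 8 counts in CVST (0.0850, 1.02 and 0.434 CPM), 8, 11 and 0 in CVST+Ligation (0.331, 0.567 and 0 CPM), and 0, 0 and 54 in 4-PBA (0, 0 and 2.06 CPM). Unlike Ccl3, Ccl4 was counted in 2 CVST+Ligation libraries and was absent from the counts of 2 4-PBA libraries that held Ccl3. Its means were 0.513 ± 0.472 CPM in CVST, 0.299 ± 0.285 in CVST+Ligation and 0.686 ± 1.19 in 4-PBA (SD, n = 3). Its adjusted p was at least 0.889 in all 3 comparisons (edgeR).

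Cxcl10, an interferon-inducible ligand of Cxcr3 on T and NK cells, had 44, 54 and 19 counts in CVST (1.87, 2.39 and 1.03 CPM), 8, 20 and 26 in CVST+Ligation (0.331, 1.03 and 1.14 CPM), and 11, 30 and 144 in 4-PBA (0.596, 1.26 and 5.49 CPM). The lowest CVST library lay within the CVST+Ligation range, and 1 4-PBA library was 2.29 times the next highest of the 9. Means were 1.77 ± 0.688 CPM in CVST, 0.835 ± 0.440 in CVST+Ligation and 2.45 ± 2.65 in 4-PBA (SD, n = 3). The fitted log2 difference was -1.09 (standard error 0.80, adjusted p = 0.680) for CVST+Ligation against CVST and 1.57 (standard error 0.80, adjusted p = 0.99983) for 4-PBA against CVST+Ligation, both by edgeR, and 0.48 (standard error 0.77, adjusted p = 0.819) for 4-PBA against CVST. Without 4-PBA replicate 3 the last 2 were 0.17 and -0.91, so that the higher 4-PBA mean rested on that library. Cxcr3 had at most 6 counts in any library. The other Cxcr3 ligands Cxcl9 and Cxcl11 were at 0 in all CVST and CVST+Ligation libraries and had at most 6 and 5 counts in 4-PBA.

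Il1b, the cytokine of the group, rested on few reads, with 16, 24 and 16 counts in CVST (0.680, 1.06 and 0.868 CPM), 2, 15 and 19 in CVST+Ligation (0.0827, 0.773 and 0.835 CPM), and 0, 14 and 35 in 4-PBA (0, 0.589 and 1.33 CPM). The 3 CVST libraries lay close together, and each ligated group held 1 library at or near 0. Means were 0.871 ± 0.192 CPM in CVST, 0.564 ± 0.418 in CVST+Ligation and 0.641 ± 0.668 in 4-PBA (SD, n = 3). The fitted log2 difference was -0.63 (standard error 1.03, adjusted p = 0.858) for CVST+Ligation against CVST and 0.23 (standard error 1.03, adjusted p = 0.99983) for 4-PBA against CVST+Ligation (edgeR). The sign of the latter turned without 4-PBA replicate 3 (-0.85) or without CVST+Ligation replicate 1 (-0.27). In 4-PBA against CVST it was -0.40 (standard error 1.01, adjusted p = 0.891), and 0.16 without 4-PBA replicate 1. A 2-fold difference in Il1b, 1 on the log2 scale, would thus lie within 1 standard error of 0 and was not detectable with these 9 libraries. The parts of depth and of spread between mice in that standard error were not separated.

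**Figure D1:**
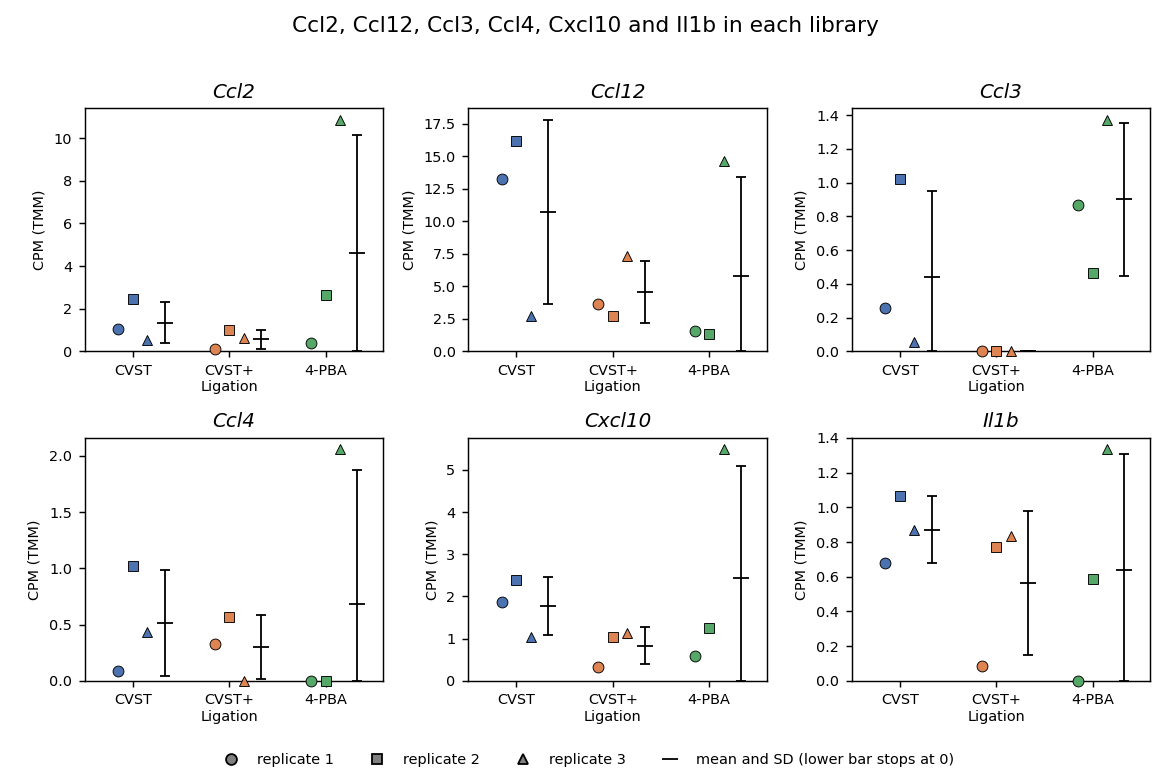
Level of Ccl2, Ccl12, Ccl3, Ccl4, Cxcl10 and Il1b in each library, as CPM after TMM scaling on linear axes from 0; the marker shape is the replicate, and the bar beside each group is the mean with its SD (n = 3). In 4-PBA the green triangle, replicate 3, lies far above replicates 1 and 2 for Ccl2 (10.9 CPM), Ccl12 (14.6), Ccl4 (2.06) and Cxcl10 (5.49), and Ccl3 is at 0 in all CVST+Ligation libraries.

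Cx3cl1, or fractalkine, is held on neurons and acts on microglia through Cx3cr1. It had 12757, 10939 and 7307 counts in CVST (542, 485 and 396 CPM), 8554, 3714 and 9111 in CVST+Ligation (354, 191 and 400.5 CPM), and 5392, 7000 and 7124 in 4-PBA (292, 295 and 271 CPM). Every 4-PBA library was below every CVST library, and CVST+Ligation replicate 3 lay just above the lowest CVST library. Means were 475 ± 73.4 CPM in CVST, 315 ± 109.7 in CVST+Ligation and 286 ± 12.7 in 4-PBA (SD, n = 3). Against CVST, the fitted log2 difference was -0.59 (standard error 0.24, adjusted p = 0.485) for CVST+Ligation and -0.73 (standard error 0.24, adjusted p = 0.199) for 4-PBA, and between the ligated groups it was -0.14 (standard error 0.24, adjusted p = 0.99983; edgeR).

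Neuron markers differed in direction beside Cx3cl1. All 7 cortical excitatory neuron markers were lower in CVST+Ligation than in CVST by their fitted fold change and 6 of 7 were lower in 4-PBA than in CVST, with medians of -0.63 and -1.18 on the log2 scale, and none of the 7 was at 0 in any group. Striatal neuron markers lay in the same direction, with all 7 fitted fold changes below 0 in both ligated groups and medians of -2.32 and -1.31, and they summed to 401 to 1101 CPM in CVST, 127 to 203 in CVST+Ligation and 112 to 541 in 4-PBA. Thalamic neuron markers lay in the other direction, with all 6 fold changes above 0 in both ligated groups and medians of 1.59 and 2.90, and they summed to 51.7 to 60.1 CPM in CVST, 141 to 296 in CVST+Ligation and 303.5 to 607 in 4-PBA. Of the 5 pan-neuronal markers 3 were below 0 in each ligated group against CVST (medians -0.22 and -0.62), and of the 5 hippocampal markers 4 were above 0 (medians 1.5 and 1.58). None of the striatal, thalamic, pan-neuronal and hippocampal markers was at 0 throughout a group. CVST+Ligation replicate 2, which had the lowest Cx3cl1 of all libraries, had a summed cortical level of 211 CPM. The lowest summed cortical level, 176 CPM, was in 4-PBA replicate 2, which had 295 CPM of Cx3cl1, the highest of its group. The part of these neurons in the Cx3cl1 difference was not tested. Cx3cr1, the receptor of Cx3cl1 on microglia, was at 30.8 ± 7.03 CPM in CVST, 24.7 ± 3.03 in CVST+Ligation and 24.4 ± 3.09 in 4-PBA (SD, n = 3), with log2 fold changes of -0.32 (standard error 0.20, adjusted p = 0.633) and -0.34 (standard error 0.20, adjusted p = 0.454) against CVST.

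Cxcl12, which retains Cxcr4-bearing cells in their niche and guides neural progenitors, was the only member whose fitted level was above CVST in CVST+Ligation. It had 184, 220 and 89 counts in CVST (7.82, 9.76 and 4.83 CPM), 322, 257 and 186 in CVST+Ligation (13.3, 13.2 and 8.18 CPM), and 284, 222 and 199 in 4-PBA (15.4, 9.34 and 7.58 CPM). In each ligated group 1 library or more lay within the CVST range. Means were 7.47 ± 2.48 CPM in CVST, 11.6 ± 2.94 in CVST+Ligation and 10.8 ± 4.09 in 4-PBA (SD, n = 3). The log2 fold change against CVST was 0.63 (standard error 0.35, adjusted p = 0.591) for CVST+Ligation and 0.52 (standard error 0.35, adjusted p = 0.515) for 4-PBA, and between the ligated groups it was -0.11 (standard error 0.35, adjusted p = 0.99983; edgeR). Meningeal fibroblast markers (6 genes, none at 0 in a group) summed to 76.0 to 116 CPM in CVST, 99.7 to 235 in CVST+Ligation and 106 to 346 in 4-PBA, and their part in the Cxcl12 values was not tested. The Cxcl12 receptors Cxcr4 (6.35 ± 4.18, 5.72 ± 1.70 and 3.73 ± 0.801 CPM) and Ackr3, a scavenger of Cxcl12 (14.2 ± 3.27, 15.5 ± 3.03 and 14.3 ± 3.68 CPM), had overlapping CVST, CVST+Ligation and 4-PBA values in that order (SD, n = 3).

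Cxcl14, a chemokine made by interneurons and epithelia, had 475, 955 and 625 counts in CVST (20.2, 42.3 and 33.9 CPM), 589, 603 and 556 in CVST+Ligation (24.3, 31.1 and 24.4 CPM), and 600, 751 and 715 in 4-PBA (32.5, 31.6 and 27.2 CPM). CVST held both its lowest and its highest library, so the ligated groups lay inside the CVST range, with means of 32.1 ± 11.2 CPM in CVST, 26.6 ± 3.86 in CVST+Ligation and 30.5 ± 2.81 in 4-PBA (SD, n = 3). Cxcl16, the membrane-bound ligand of Cxcr6 that also acts as a scavenger receptor, had 77, 79 and 32 counts in CVST (3.27, 3.50 and 1.74 CPM), 53, 79 and 45 in CVST+Ligation (2.19, 4.07 and 1.98 CPM), and 45, 82 and 129 in 4-PBA (2.44, 3.45 and 4.92 CPM). Its means were 2.84 ± 0.961, 2.75 ± 1.15 and 3.60 ± 1.25 CPM in that order (SD, n = 3), and the groups overlapped. For Cxcl14 the fitted log2 difference was -0.27 (standard error 0.25, adjusted p = 0.732) and for Cxcl16 -0.05 (standard error 0.42, adjusted p = 0.976) in CVST+Ligation against CVST, and in 4-PBA against CVST+Ligation they were 0.19 (standard error 0.25) and 0.40 (standard error 0.42), each with an adjusted p of 0.99983 (edgeR). Cxcr6 had at most 4 counts in any library.

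**Figure D2:**
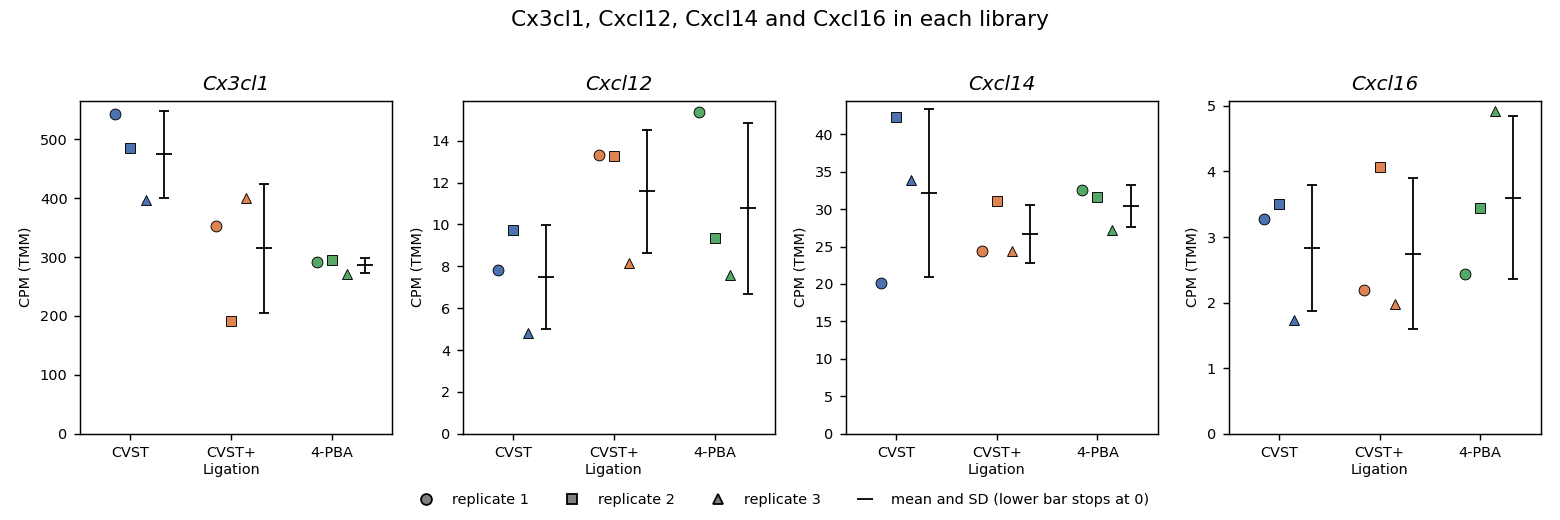
Level of Cx3cl1, Cxcl12, Cxcl14 and Cxcl16 in each library, as CPM after TMM scaling on linear axes from 0, with the marker shape as the replicate and the mean and SD (n = 3) beside each group. The 3 4-PBA values of Cx3cl1 (271 to 295 CPM) lie below all 3 CVST values (396 to 542 CPM), and the groups of the other 3 genes overlap.

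The first comparison, CVST+Ligation against CVST, asks what blocking lymphatic drainage adds to the clot. After adjustment edgeR called 0 of the 10 members, with 0.0203% of all genes tested called, 3 of 14746. DESeq2 called 1 member, Ccl3, and 264 genes in all. At an unadjusted p below 0.05 edgeR called 2 members, both lower in CVST+Ligation, Ccl3 and Cx3cl1, beside 9.64% of all genes in either direction and 4.18% lower. In the same comparison 9 of the 10 fold changes were below 0, with a median of -0.71 on the log2 scale against 0.0021 over all genes, and Cxcl12 was the exception. That count did not hold when single libraries were left out: Cxcl16 also lay above 0 without CVST replicate 1 (0.054), CVST replicate 2 (0.13), CVST+Ligation replicate 1 (0.081) or CVST+Ligation replicate 3 (0.13), and Ccl4 without CVST replicate 2 (0.23). Groups did not overlap for 1 member, Ccl3, beside 13.8% of all genes (7.21% lower). The unadjusted count was 1 without CVST replicate 2 or without CVST+Ligation replicate 2, since Cx3cl1 then missed the threshold, and it was 2 without CVST replicate 1, with Cxcl14 in place of Cx3cl1. All genes passing then numbered 1277 of 14980, 1206 of 14950 and 1260 of 14961 in that order.

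The second comparison, 4-PBA against CVST+Ligation, asks what the inhibitor of endoplasmic reticulum stress changes in ligated mice. edgeR called 0 members after adjustment, as it did for 0% of all genes, while DESeq2 called 1 member, Ccl3, and 22 genes in all. At an unadjusted p below 0.05 edgeR called 2 members, Ccl2 and Ccl3, both higher in 4-PBA, beside 3.23% of all genes, 476, in either direction and 1.81% higher. Fitted fold changes were above 0 for 8 of the 10, with a median of 0.38 against -0.02 over all genes, and Cxcl12 and Cx3cl1 were below 0. That count did not hold without 4-PBA replicate 3, where Ccl12 and Il1b lay below 0 and Ccl4 had 0 counts in the remaining 4-PBA libraries. Ccl3 was the only member whose groups did not overlap, beside 7.73% of all genes (3.51% higher). Ccl2 missed the unadjusted threshold without 4-PBA replicate 3, without CVST+Ligation replicate 1 or without CVST+Ligation replicate 3, which left 1 member, Ccl3. All genes passing then numbered 596 of 14921, 337 of 14970 and 370 of 14979 in that order. Without CVST+Ligation replicate 2 the member count was 3, with Cx3cl1 added, but 1497 of 14950 genes then passed, against 476 of 14746 with all libraries. Without 4-PBA replicate 1 it was also 3, with Cxcl10 added, beside 500 of 14958 genes.

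The third comparison set 4-PBA against CVST and shares its libraries with the other two. edgeR called 0 members after adjustment (0.122% of all genes, 18) and 1 at an unadjusted p below 0.05, Cx3cl1, which was lower, beside 15.4% of all genes (7.33% lower). DESeq2 called 0 members and 855 genes in all after adjustment. Cx3cl1 was also the only member whose groups did not overlap, beside 23.7% of all genes (11.5% lower). The unadjusted count was 0 without CVST replicate 1, where Cx3cl1 missed the threshold. It was 2 without CVST replicate 2 (Ccl3 added) or without 4-PBA replicate 1 (Ccl2 added), and 3 without 4-PBA replicate 3 (Ccl4 and Ccl12 added). All genes passing in these 4 settings numbered 1760 of 14961, 2121 of 14980, 1517 of 14958 and 2341 of 14921 in that order.

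**Figure D3:**
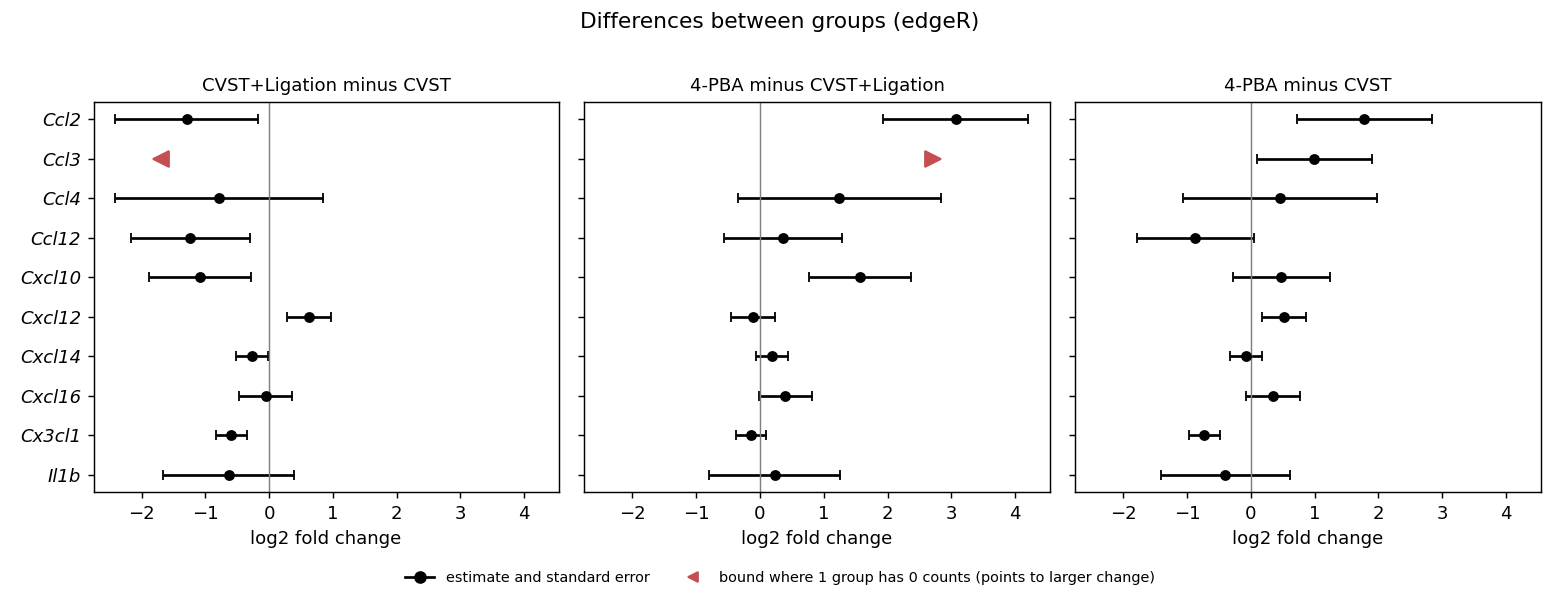
Log2 fold change of each member in the 3 comparisons, with the standard error of the edgeR fit (points and bars) or, for Ccl3 where CVST+Ligation has 0 counts, the bound set by 3 counts per library (red triangles). In the first panel 9 of 10 members lie below 0 and Cxcl12 above, and in the second Ccl2 (3.07) and the Ccl3 bound lie farthest above 0.

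One library set much of the spread. 4-PBA replicate 3 was the highest of the 9 libraries for 6 of the 10 members, Ccl2, Ccl3, Ccl4, Cxcl10, Cxcl16 and Il1b, and for 7.20% of all genes tested. CVST replicate 2 was the highest for Ccl12 and Cxcl14, CVST replicate 1 for Cx3cl1 and 4-PBA replicate 1 for Cxcl12. In 4-PBA replicate 3 the monocyte markers (7 genes, Ccr2 among them) summed to 42.1 CPM and the neutrophil markers (9 genes) to 10.1 CPM, both the highest of the 9 libraries. Elsewhere monocyte markers summed to 6.84 to 23.9 CPM in CVST, 5.85 to 37.2 in CVST+Ligation and 13.4 to 20.3 in the other 4-PBA libraries, with none at 0 through a whole group. Ccl2 did not follow them in every library, since CVST+Ligation replicate 2 had 37.2 CPM of monocyte markers and 0.979 CPM of Ccl2. Neutrophil markers summed to 1.78 to 6.56 CPM in CVST, 0.992 to 3.97 in CVST+Ligation and 2.66 to 10.1 in 4-PBA, with Ly6g at 0 throughout each of the ligated groups. Only 4 of the 7 monocyte and 2 of the 9 neutrophil markers passed the filter on low counts. Astrocyte markers (6 genes) were also highest in 4-PBA replicate 3, at 2258 CPM. They summed to 1092 to 1902 CPM in CVST, 1195 to 1612 in CVST+Ligation, and 992 and 1015 in 4-PBA replicates 1 and 2. The part of any of these cells in the values of 4-PBA replicate 3 was not tested.

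Microglia, a main source of Ccl3, Ccl4, Ccl12 and Il1b in the brain, are also the cells with Cx3cr1. Their 11 markers summed to 997 to 1123 CPM in CVST, 739 to 817 in CVST+Ligation and 724 to 952 in 4-PBA, with none at 0. In CVST+Ligation all 11 had fold changes below 0 against CVST, and 6 of them had an unadjusted p below 0.05, beside 4.18% of all genes lower at that threshold. In 4-PBA 10 of the 11 were below 0 against CVST, with a median of -0.25, and 4 passed, beside 7.33% of all genes lower. In the first comparison Ccl3, Ccl4, Ccl12 and Il1b also had fold changes below 0, whereas in 4-PBA against CVST Ccl3 (0.997) and Ccl4 (0.46) were above 0 and Ccl12 and Il1b below. The part of microglia in these values was not tested.

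**Figure D4:**
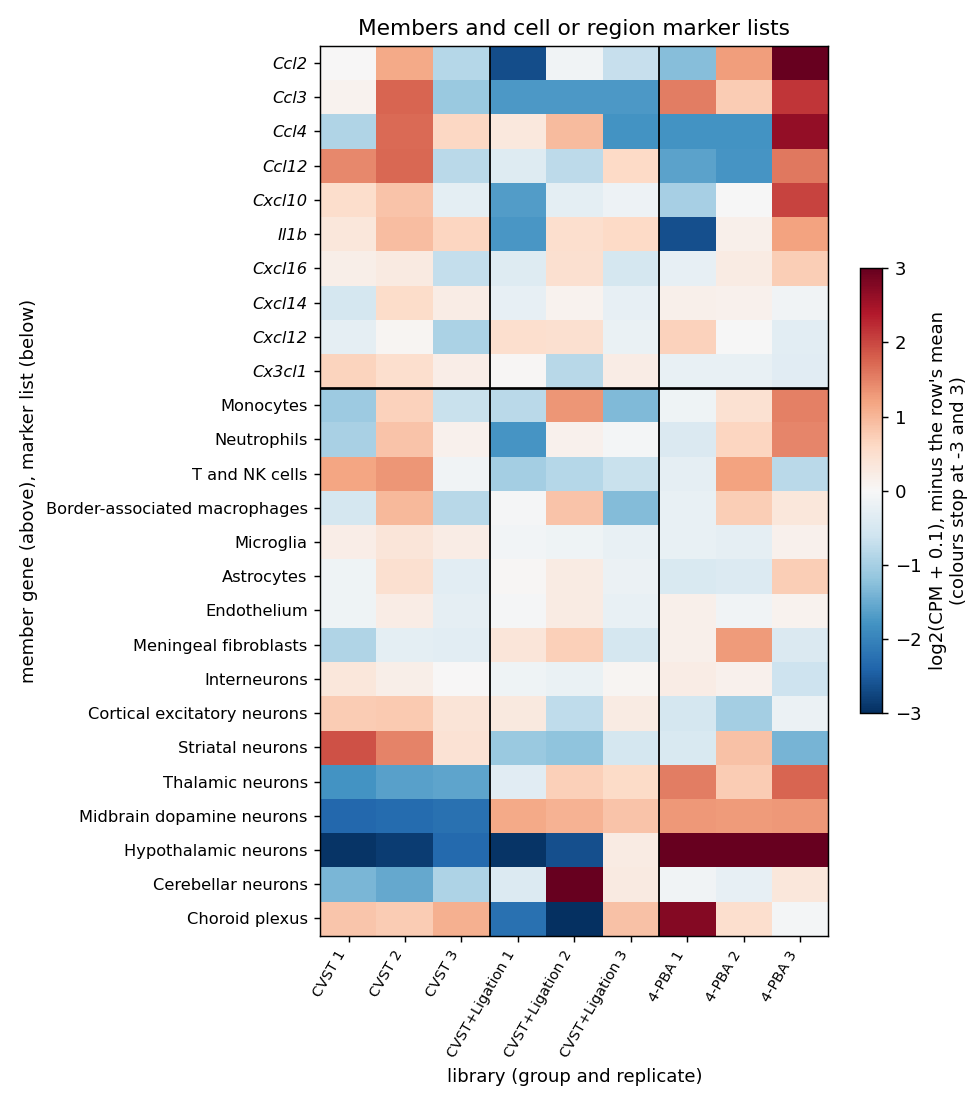
Members (rows above the thick line) and summed levels of 16 marker lists (rows below it) in the 9 libraries (columns), coloured by log2(CPM + 0.1) minus the mean of the row, with colours ending at -3 and 3. The column of 4-PBA replicate 3 is red for Ccl2, Ccl3, Ccl4, Ccl12, Cxcl10 and Il1b and for monocytes and neutrophils, and midbrain dopamine neuron markers are blue in CVST and red in both ligated groups.

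**Figure D5:**
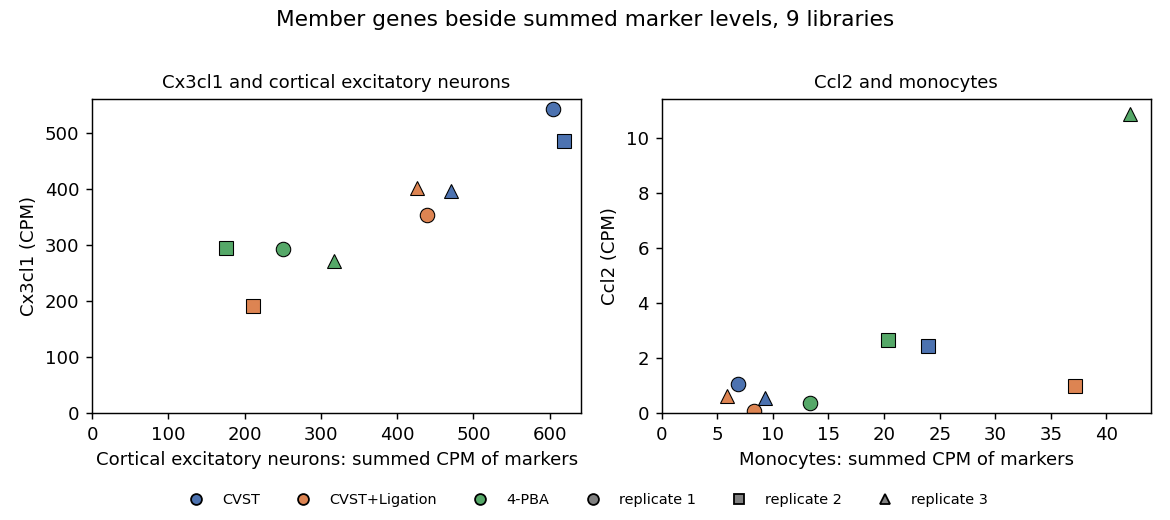
Left, Cx3cl1 against the summed cortical excitatory neuron markers; right, Ccl2 against the summed monocyte markers, both in CPM on linear axes from 0, 1 point per library, coloured by group and shaped by replicate. The libraries with the most cortical marker RNA (604 and 619 CPM) have the most Cx3cl1. The library with the least (176 CPM, 4-PBA replicate 2) has 295 CPM of Cx3cl1, the highest of its group. Ccl2 at 10.9 CPM stands alone at 42.1 CPM of monocyte markers while the library at 37.2 CPM has little.

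The receptors and relatives of the members were read from fixed lists. Of 23 chemokine receptors, 11 were tested, and the rest were too low. After adjustment 0 of the 11 passed in any of the 3 comparisons (edgeR), against 2 lower in each ligated group than in CVST, and 0 between the ligated groups, at an unadjusted p below 0.05, beside 4.18% (CVST+Ligation) and 7.33% (4-PBA) of all genes lower than in CVST. Ackr2, a decoy that removes CC chemokines, was at 1.95 ± 1.42 CPM in CVST, 0.459 ± 0.141 in CVST+Ligation and 0.281 ± 0.247 in 4-PBA (SD, n = 3), and it was among those lower in both ligated groups. Ccr2, the receptor of Ccl2 and Ccl12, had 1, 11 and 0 counts in CVST, 2, 14 and 0 in CVST+Ligation and 8, 7 and 28 in 4-PBA.

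Of 29 other chemokines, 12 were tested, and 11 of these 12 had a fold change below 0 in CVST+Ligation against CVST. Their median was -0.23 on the log2 scale, against 0.0021 over all genes, and 1, Ccl27a, was lower at an unadjusted p below 0.05, beside 4.18% of all genes. Ccl27a, known as a skin chemokine, was at 73.1 ± 4.79 CPM in CVST, 43.8 ± 8.55 in CVST+Ligation and 38.0 ± 4.28 in 4-PBA (SD, n = 3), without overlap of either ligated group with CVST. Against CVST the fitted differences on the log2 scale were -0.74 in CVST+Ligation (standard error 0.16, adjusted p = 0.273) and -0.94 in 4-PBA (standard error 0.16, adjusted p = 0.0518; edgeR). Ccl17 was the other that was lower in 4-PBA than in CVST at an unadjusted p below 0.05, beside 7.33% of all genes. Of the 12, 7 had fold changes above 0 in 4-PBA against CVST+Ligation, and Ccl7, a second ligand of Ccr2, was the 1 that was higher at that threshold, beside 1.81% of all genes (adjusted p = 0.99983, edgeR). Its counts were 3, 14 and 2 in CVST, 0, 7 and 2 in CVST+Ligation and 2, 29 and 77 in 4-PBA, and as with Ccl2 the highest was 4-PBA replicate 3.

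Of 27 genes of the interleukin 1 system, 22 were tested, and 0 differed between CVST+Ligation and CVST or between 4-PBA and CVST+Ligation at an unadjusted p below 0.05, beside 9.64% and 3.23% of all genes. P2rx7, the ATP-gated channel upstream of the inflammasome, was the only one that did so between 4-PBA and CVST, beside 15.4% of all genes, at 11.2 ± 2.83 against 7.29 ± 1.33 CPM (SD, n = 3; log2 fold change 0.62, standard error 0.25, adjusted p = 0.273, edgeR). Nlrp3, the inflammasome sensor, was at 1.73 ± 0.799, 1.97 ± 0.480 and 2.08 ± 0.698 CPM in CVST, CVST+Ligation and 4-PBA, and Casp1, which cuts the Il1b precursor, at 3.56 ± 2.18, 3.12 ± 0.991 and 3.21 ± 0.915 CPM. The groups overlapped for both genes. Il1rn, the receptor antagonist, was too low to test, with at most 3 counts in CVST and 24 in 4-PBA.

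Of 20 NF-kB feedback genes and cytokine targets, 16 were tested. In CVST+Ligation against CVST 0 passed an unadjusted p below 0.05, beside 9.64% of all genes. Vcam1, an adhesion molecule of endothelium, was higher in 4-PBA (77.8 ± 4.08 CPM) than in CVST+Ligation (62.8 ± 1.24) and CVST (62.1 ± 5.20), without overlap (SD, n = 3), each at an unadjusted p below 0.05, beside 3.23% and 15.4% of all genes in either direction, and with adjusted p of 0.99983 and 0.215 (edgeR). Nfkb1 was the other of the list that was higher in 4-PBA than in CVST at that threshold. Among the cytokines, Il17a was at 0 in every library, and Tnf, Il6 and Il10 reached at most 11, 24 and 2 counts, so their RNA could not be compared at this depth. Of 16 interferon-stimulated genes, 14 were tested, and 13 of these had fold changes above 0 in 4-PBA against CVST+Ligation, with a median of 0.38 against -0.02 over all genes. In that comparison 0 of the 14 passed an unadjusted p below 0.05, beside 3.23% of all genes. In CVST+Ligation against CVST 9 of the 14 had fold changes below 0. There 1, Gbp3, was lower at that threshold, beside 4.18% of all genes lower and 9.64% in either direction. Gbp3 was at 6.32 ± 0.938 against 10.2 ± 4.64 CPM (SD, n = 3) with overlapping groups and an adjusted p of 0.516 (edgeR).

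The genes whose pattern over the 9 libraries was most like that of a member were found by Pearson's r of log2 CPM, given as a description with no p. For Ccl2 they were Mvp (r = 0.978), Ccl7 (0.960) and Fbxl4 (0.954), for Ccl12 Csf2rb2 (0.967), Tnfsf9 (0.966) and Dscc1 (0.956), and for Cxcl10 Ier3 (0.955), P4hb (0.946) and Tpm4 (0.945). Ccl7 was the only one of these 9 that was itself a chemokine. For Ccl3 they were Iigp1 (0.933), an interferon-inducible GTPase, Ajuba (0.901) and Ptprc (0.858), the leukocyte antigen CD45. For Ccl4 they were Lpxn (0.954), Ifi204 (0.926) and Fyb (0.922), and for Il1b Tmem252 (0.932), S100a11 (0.926) and Mknk1 (0.922). Cx3cl1 had 158 genes with r over 0.9, led by Lipg (0.976), and Cxcl12 had 127, led by Dcp2 (0.989), whereas Cxcl14 had 1, Rbm12 (0.935). Cxcl16 was most like Mfsd1 (0.958). The 9 points of each pair share their libraries and depths.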

How the data were processed

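RNA of 9 mouse brains was analysed, 3 per group, with groups taken from the names in the labels. According to the methods, the authors filtered paired reads with fastp, aligned them with HISAT2, assembled transcripts with StringTie and quantified with RSEM; versions are not given, and the submitters' processing notes name mm10 and GRCm38. The authors deposited raw counts per gene symbol and a second table, described as TPM. Its deposited values are FPKM: count divided by total and by 1 whole length per gene for 17446 genes, with column sums of 780200 to 879700.

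In R 4.3.3, edgeR 4.0.16 (TMM, filterByExpr, quasi-likelihood, 3 groups, no covariates) was fitted to all 9 libraries and 14746 genes, with Benjamini-Hochberg adjustment over all of them; the common biological coefficient of variation was 0.287. The totals were 18100739 to 25091498 counts, and intervals and floors of 3 counts cover counting error only. Alternatives were DESeq2 1.42.0, limma 3.58.1 on log2(FPKM + 1) and log2(FPKM + 0.1), other scalings and filters, a replicate block, only the 2 groups compared, and each library left out. The fits of differences by edgeR (with and without the replicate block), DESeq2 and limma were tested on simulated counts with known changes, and the other steps were not. No library repeated another of its group (chi-square at least 22.3 times its degrees of freedom). The members are described whatever their values; of each gene list, those with the smallest p or groups that do not overlap are named, with receptors of members and list genes too low to test added after their values were seen. Members, lists and tests were chosen with earlier results of these data known. Likeness was Pearson's r of log2 CPM with a prior count of 2. Genes were located with GENCODE vM21, and plots were drawn with matplotlib 3.10.9. Some items of the lists are not reported here.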

Additional observations from a re-analysis of the deposited data

How the results depend on the processing

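Under the alternatives the adjusted count stayed at 0 members in all 3 comparisons except with DESeq2, which called 1 (Ccl3) in CVST+Ligation against CVST and 1 (Ccl3) in 4-PBA against CVST+Ligation. At an unadjusted p below 0.05, the count for CVST+Ligation against CVST was 1 under a stricter filter, 10 counts or more in all 9 libraries (which Ccl3 did not pass) and 0 in a model of only the 2 groups (whose filter Ccl3 did not pass, and where Cx3cl1, at -0.59, missed the threshold). For 4-PBA against CVST+Ligation it was 0 under that filter (which Ccl2 did not pass either) and 1 with limma on log2(FPKM + 1) or log2(FPKM + 0.1). Of all genes, 1268 of 13367 and 1183 of 14397 passed in the first comparison. In the second 360 of 13367 passed, and with limma 439 and 420 of 14746. Leaving out 1 library gave 1 to 2, 1 to 3 and 0 to 3 members in the 3 comparisons, CVST+Ligation against CVST, 4-PBA against CVST+Ligation and 4-PBA against CVST. Without the 2 libraries that stand apart, CVST+Ligation replicate 2 and 4-PBA replicate 3 (chosen after seeing the data), the member count was 1 in the first (Ccl3), 2 in the second, with Ccl12, lower in 4-PBA, in place of Ccl2, and 2 in the last (Ccl12 and Cx3cl1). Of 14826 genes, 1291, 1482 and 2964 then passed in the same order. With DESeq2's size factors or total counts these counts were those reported.

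The replicate block gave 3 members at an unadjusted p below 0.05 in CVST+Ligation against CVST (Cxcl12 added), within 1.5 times of the reported count, and 0 after adjustment. Of 14746 genes, 1765 passed unadjusted with the block and 1422 without it. The labels number the libraries but state no pairing. The correlation of deviations between same-numbered libraries was -0.05 to 0.32, over 0.1 in 4 of 9 pairs. Between differently numbered libraries it was -0.36 to 0.13, over 0.1 in 1 of 18 pairs. Of the 9 libraries, 7 correlated best with their own number, a hint from the data only, and whether the numbers mark a pairing was not tested. The block reversed the log2 fold change of Ccl12 in 4-PBA against CVST+Ligation (-0.032) and of Cxcl10 in 4-PBA against CVST (-0.071).

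Other reversed log2 fold changes in 4-PBA against CVST+Ligation were, with limma on log2(FPKM + 1), Ccl12 (-0.31), and with limma on log2(FPKM + 0.1), Ccl4 (-0.62), Ccl12 (-0.39) and Il1b (-0.23). Without the 2 libraries that stand apart they were Ccl12 (-1.92), Cxcl12 (0.21) and Il1b (-0.53). In 4-PBA against CVST, limma reversed Ccl4 (-0.26 and -1.65) and Cxcl14 (0.053 and 0.055) with the larger and the smaller pseudocount, and leaving out those 2 libraries reversed Cxcl10 (-0.91). With 1 library left out at a time, the log2 fold changes that reversed ranged from -1.67 to 0.88 (Ccl12), -5.70 to 2.06 (Ccl4), -0.39 to 0.069 (Cx3cl1), -0.44 to 0.093 (Cxcl12) and -0.85 to 0.80 (Il1b) in 4-PBA against CVST+Ligation. They ranged from -6.49 to 1.49 (Ccl4), -0.91 to 0.95 (Cxcl10), -0.32 to 0.19 (Cxcl14) and -1.48 to 0.16 (Il1b) in 4-PBA against CVST, and from -1.58 to 0.23 (Ccl4) and -0.45 to 0.13 (Cxcl16) in CVST+Ligation against CVST. The lowest Ccl4 values are fits to a group left at 0 counts and give no size of change. The cause of these reversals was not tested. Ccl3, Ccl4 and Il1b had the fewest counts of the members, 0 to 54 a library, with medians of 6, 8 and 16. The parts of depth and of spread between mice were not separated.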
